A study of Homo sapiens with 12 samples.

Results

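The genes described are regulators and targets of the tumour suppressor p53 that lie outside the BCL2 and CDK-inhibitor families. The set has 9 genes by name, and members were found by matching the NCBI gene IDs of the authors' deposited table to gene symbols. The table held 5 of the 9 among its 5759 genes: MDM4, PPM1D, PLK3, GADD45A and SESN1. MDM2, BTG2, SESN2 and ZMAT3 are not analysed here. MOLT4, an established human T lymphoblast line, was sampled in 4 groups of 3, 12 samples in all, with a wild-type genotype per the labels. Vehicle cells had 6 h of DMSO, 1 group had 0.1 µM of compound 955 for 6 h and another the same dose for 1 h, while 1 µM of SNS-032 was given for 6 h. SNS-032 inhibits cyclin-dependent kinases, among them CDK9, which releases paused RNA polymerase II, and 955 is, per the series' title and design text, a degrader conjugate of piperlongumine that carries SNS-032 to bind its target. The comparisons address how the transcriptional effect of 955 relates to that of its parent inhibitor.

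p53 is a transcription factor kept low in unstressed cells by MDM2, a ubiquitin ligase, and by the related protein MDM4, which binds and masks its activation domain. After DNA damage and other stress p53 is stabilised and raises genes for cell-cycle arrest, repair, antioxidant defence and death. Several of its targets, MDM2 and PPM1D among them, act back on p53 and end the response. Many mRNAs of the pathway turn over quickly, so their levels follow ongoing transcription closely.

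The sequences before the start sites of PPM1D and PLK3, which were lower at 1 h, and of MDM4, which was higher at 6 h, are given first so that members moving in opposite directions can be compared. RefSeq (GRCh38.p14) held such windows for 4 of the 5 genes, and GADD45A had no entry. Each run is the 250 bases before the annotated start, on the plus strand of the genome, at chr17:60599943-60600192 for PPM1D, chr1:44800127-44800376 for PLK3 and chr1:204516156-204516405 for MDM4. Capitals mark matches on either strand to the GC box (GGGCGG), the CCAAT box (CCAAT) and the cAMP response element (TGACGTCA).
PPM1D: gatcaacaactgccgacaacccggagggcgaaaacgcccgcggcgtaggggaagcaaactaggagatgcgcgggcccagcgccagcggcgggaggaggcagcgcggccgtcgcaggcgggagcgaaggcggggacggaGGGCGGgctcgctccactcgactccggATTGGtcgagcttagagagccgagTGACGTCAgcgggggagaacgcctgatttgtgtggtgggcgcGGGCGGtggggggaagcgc
PLK3: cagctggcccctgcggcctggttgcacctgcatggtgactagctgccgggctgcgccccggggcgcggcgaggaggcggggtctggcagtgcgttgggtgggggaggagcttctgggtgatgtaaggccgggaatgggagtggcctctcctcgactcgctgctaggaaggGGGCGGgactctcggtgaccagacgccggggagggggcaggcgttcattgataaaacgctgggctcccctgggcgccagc
MDM4: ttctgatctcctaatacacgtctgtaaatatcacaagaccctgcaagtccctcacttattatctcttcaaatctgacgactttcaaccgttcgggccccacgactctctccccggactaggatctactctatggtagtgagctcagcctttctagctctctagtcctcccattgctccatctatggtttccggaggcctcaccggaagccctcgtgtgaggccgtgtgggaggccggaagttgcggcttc
The PPM1D window held 2 GC boxes, 1 CCAAT box and 1 cAMP response element, and the PLK3 window 1 GC box. None of these motifs, nor a TATA box (TATAAA) or the p53 half-site consensus, matched in the MDM4 window. Over the windows of 35116 annotated starts, a GC box was present in 42.6%, a CCAAT box in 32.0%, a cAMP response element in 1.65%, a TATA box in 10.7% and a p53 half-site in 5.57%. Over the 6438 windows of listed genes these shares were 62.3%, 34.0%, 2.47%, 6.66% and 4.77%. GC content was 70.4% for PPM1D and 70.0% for PLK3 against 52.8% for MDM4, with a median of 58.0% over all windows. SESN1 had 3 annotated starts, on the minus strand of chromosome 6, with 7, 5 and 1 GC boxes, and the window with 1 GC box also held 1 p53 half-site. No p53 half-site matched in the windows of PPM1D or PLK3.

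The 3' ends of PPM1D and PLK3 mRNA are shown because these members were the 2 past the threshold at 1 h. The nonamer TTATTTATT, a core of AU-rich elements that mark many short-lived mRNAs, was searched on the sense strand of 3' untranslated regions of GENCODE release 29 (GRCh38), a search chosen after the fold changes were known. It occurred 2 times in PPM1D, overlapping within 1 run, and 2 times in PLK3, and in 0 copies in MDM4, GADD45A and SESN1. Of 5276 listed genes with a coding transcript, 6.79% had at least 1 copy. The matches stand in capitals, at chr17:60664782-60664810 for PPM1D and chr1:44805900-44805928 and chr1:44805918-44805946 for PLK3, on the plus strand.
PPM1D site: agtgtattTTATTTATTTATTattttgtt
PLK3 first site: tggaccacttTTATTTATTgtcagacact
PLK3 second site: tgtcagacacTTATTTATTgggatgtgag
The shorter motif ATTTA was less selective, with 19 copies in the 8438 bases of the MDM4 3' region, 5 in 2728 bases for PPM1D, 3 in 312 for PLK3, 2 in 564 for GADD45A and 1 in 1107 for SESN1. Per kb, PLK3 had the most of the 5, 9.62, above 96.2% of listed genes, against 2.25 for MDM4, and the median of listed genes was 1.37. These matches describe the sequences, and their part in the measured changes was not tested.

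The values are log2 fold changes, F statistics, p-values and false discovery rates (FDR) of each treated group against DMSO, taken from the authors' deposited table. No per-sample values entered the analysis, which leaves depth and the overlap between replicates unknown, and intervals below are 95% intervals from a standard error implied by the fold change and F. A gene was past the threshold with an FDR below 0.05 and a log2 fold change of 1 or more in either direction. All 3 comparisons share the DMSO samples. Genes were listed because they changed in some comparison, so a member's presence already means a change, and counts of members are read only beside the background. In the authors' deposited table the share of listed genes past the threshold was 8.44% for 955 at 1 h, 85.3% for 955 at 6 h and 90.2% for SNS-032, and by FDR alone 16.6%, 93.5% and 95.7%. With a bound of 2 in place of 1 these shares were 0.833%, 28.2% and 32.2%. Vehicle cells were harvested at 6 h alone, so in the 1 h comparison treatment and time in culture cannot be told apart. The median log2 fold change of listed genes was -0.05, -1.03 and -1.07 in the 3 comparisons of the authors' deposited table. Of 26 T-lineage genes 12 were listed, with average levels over all samples from 3.74 (RAG2) to 10.1 (ZAP70) log2 CPM, the depth-scaled count. Since listing depends on a change, counts of listed markers cannot check the labelled T lymphoblast identity. Of 25 markers of other cell types 4 were listed, with average levels from 0.89 to 3.94 log2 CPM, and 3 of the 4 were higher past the threshold after 6 h of either compound in the authors' deposited table. Their part in the results below was not tested. In bulk RNA, fewer cells of a type and less RNA per cell cannot be told apart.

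Under the authors' scaling the 2 p53 regulators moved in opposite directions at 6 h, whereas with the mitochondrial mRNAs set to 0 both had values below DMSO. MDM4 mRNA rose about 2.9-fold after 6 h of 955 and 2.7-fold after SNS-032, while PPM1D mRNA fell to between 22% and 23% of the DMSO level with both. PPM1D was already at 31.0% of DMSO after 1 h of 955, when MDM4 had not passed the test.

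MDM4 (gene ID 4194, chr1:204516406-204558120 in RefSeq GRCh38.p14) had the highest average level of the 5, 6.52 log2 CPM, above 86.9% of listed genes. Its log2 fold change in the authors' deposited table was 0.25 at 1 h (F 2.45, FDR 0.645), 1.54 after 6 h of 955 (F 87.4, FDR 9.43e-08) and 1.42 after SNS-032 (F 75.2, FDR 2.57e-07). The implied standard errors were 0.16 in each comparison, well under either 6 h rise. As ratios to DMSO the 6 h values were 2.91 (2.29 to 3.68) and 2.68 (2.12 to 3.40). The direction of MDM4 depends on the scaling: with the 13 mitochondrially encoded mRNAs set to 0 it was lower than DMSO at 6 h, at -0.53 with 955 and -0.92 with SNS-032. By the test on the implied standard errors both were under the FDR threshold (adjusted p 0.00514 and 1.89e-05) but short of the fold bound.

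PPM1D (gene ID 8493, chr17:60600193-60666280) encodes WIP1, a phosphatase that removes activating phosphates from p53 and from the kinases upstream of it. Its log2 fold change in the authors' deposited table was -1.69 at 1 h (F 90.3, FDR 3.83e-06), -2.16 after 6 h of 955 (F 142, FDR 1.13e-09) and -2.11 after SNS-032 (F 135, FDR 1.38e-09). These correspond to 31.0% (24.0 to 40.0), 22.4% (17.2 to 28.998) and 23.1% (17.8 to 30.03) of DMSO. The lowest point estimate was that of 955 at 6 h. The 3 intervals overlapped one another, but they share the DMSO samples, so overlap does not test a difference between treated groups. Those differences are given further on.

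The p53 targets PLK3, GADD45A and SESN1 had values below DMSO in all 3 comparisons, with PLK3 alone past the test at 1 h. PLK3 and GADD45A reached 18.3% and 14.04% of DMSO after 6 h of 955, whereas SESN1 stood at 56.5%, under the FDR threshold but short of the fold bound, and its direction there changed with 1 of the scalings given further on.

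PLK3 (gene ID 1263, chr1:44800377-44805990) encodes a stress-responsive kinase of the polo family. Its log2 fold change in the authors' deposited table was -1.77 at 1 h (F 29.5, FDR 0.00145), -2.45 after 6 h of 955 (F 52.4, FDR 2.58e-06) and -2.75 after SNS-032 (F 63.3, FDR 5.82e-07). The level fell to 29.2% (18.3 to 46.7) at 1 h, 18.3% (11.3 to 29.7) after 6 h of 955 and 14.9% (9.10 to 24.5) after SNS-032. In GENCODE the protein-coding gene TCTEX1D4 overlaps PLK3 on the opposite strand. Whether counting was strand-specific is not given in the sources used here, so reads from either gene could enter the PLK3 value. MDM4, PPM1D and SESN1 likewise overlap noncoding genes on the opposite strand (AL512306.1, RNU6-623P and AL390208.1), SESN1 also has RNU6-653P on its own strand, and GADD45A overlaps none.

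GADD45A (gene ID 1647, chr1:67685201-67688334) encodes a small acidic protein that acts in growth arrest, repair and stress kinase signalling. It had the lowest average level of the 5, 1.496 log2 CPM, and the widest error, with implied standard errors of 0.50 to 0.55. Its log2 fold change in the authors' deposited table was -1.19 at 1 h (F 5.73, FDR 0.268), -2.83 after 6 h of 955 (F 27.7, FDR 0.000239) and -3.16 after SNS-032 (F 32.7, FDR 8.88e-05). As shares of DMSO these were 43.8% (21.4 to 89.8), 14.04% (6.46 to 30.5) and 11.2% (5.04 to 24.9). GADD45A therefore did not pass the test at 1 h, and its 6 h values had the lowest point estimates among the 5.

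SESN1 (gene ID 27244, chr6:108984309-109094846) encodes sestrin 1, which restrains mTORC1 signalling and takes part in antioxidant defence. Its log2 fold change in the authors' deposited table was -0.43 at 1 h (F 4.05, FDR 0.429), -0.82 after 6 h of 955 (F 14.4, FDR 0.0045) and -1.28 after SNS-032 (F 33.5, FDR 5.04e-05). The corresponding shares of DMSO were 74.1% (54.5 to 100.8), 56.5% (41.4 to 77.1) and 41.3% (30.1 to 56.6). SESN1 passed both criteria with SNS-032 alone, which does not by itself show a difference from 955.

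**Figure D1:**
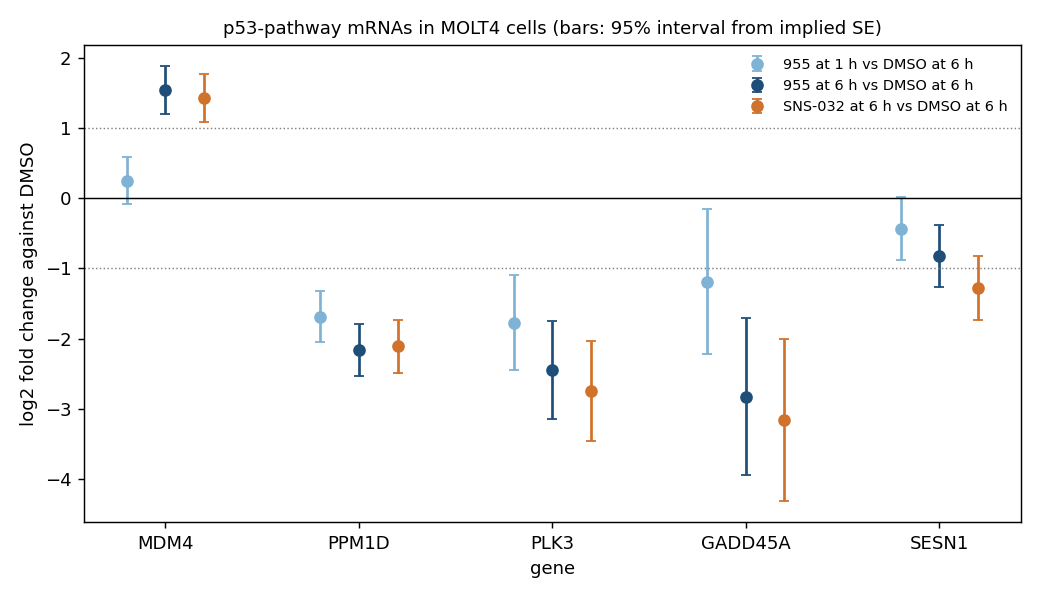
Log2 fold change against DMSO (y axis) for each of the 5 genes (x axis) in the 3 comparisons, by colour; points are the deposited values, bars the 95% intervals from the implied standard errors, and dotted lines mark an absolute change of 1. MDM4 lies above 1 at 6 h with both compounds, PPM1D and PLK3 lie below -1 in all 3 comparisons, and SESN1 stays nearest to 0 among the lower genes.

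In counts, 2 of the 5 members were lower past the threshold at 1 h (PPM1D and PLK3) and 0 higher, in the authors' deposited table. After 6 h of 955 there were 3 lower (PPM1D, PLK3 and GADD45A) and 1 higher (MDM4), and after SNS-032 4 lower and 1 higher. The background shares of listed genes were 7.71% lower and 0.729% higher at 1 h, 50.1% and 35.2% for 955 at 6 h, and 52.5% and 37.8% with SNS-032, by the authors' deposited table. Since nearly every listed gene was past the threshold at 6 h, the 6 h counts of members say little about these genes in particular.

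The place of each member among the 5759 listed genes differed between 1 h and 6 h. At 1 h PLK3 had a lower value than all but 1.49% of listed genes in the authors' deposited table, and PPM1D than all but 1.89%. After 6 h of 955, 8.61% of listed genes lay below PLK3 and 13.2% below PPM1D, while GADD45A moved from 6.70% below it at 1 h to 4.90%. With SNS-032 these shares were 8.06%, 16.6% and 4.34%. SESN1 was near the middle at 6 h, with 55.1% of listed genes below it for 955 and 41.2% for SNS-032. MDM4 was among the higher genes without being extreme, since 20.9% of listed genes lay above it for 955 at 6 h and 25.4% for SNS-032. These ranks are a description over genes selected for change, with no test.

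**Figure D2:**
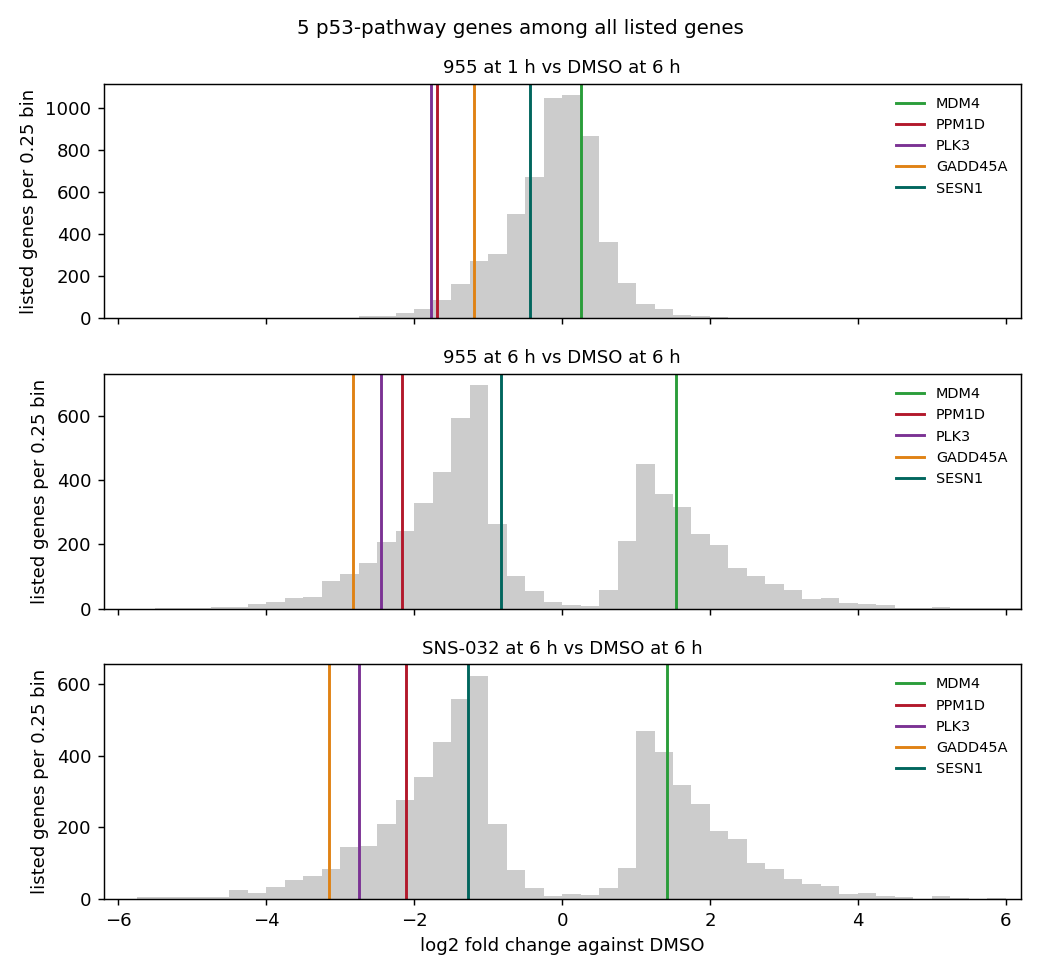
Number of listed genes (y axis, bins of 0.25) by log2 fold change against DMSO (x axis, shown from -6.2 to 6.2) in the 3 comparisons, with a coloured line at each of the 5 genes. At 1 h PLK3 and PPM1D lie in the left tail, while at 6 h, when listed genes form a lower and a higher group, they lie inside the lower group and MDM4 inside the higher one.

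The change between 1 h and 6 h of 955 was measured as the difference of the 2 log2 fold changes, with the implied standard errors and adjustment over all listed genes. Both fold changes use the same 6 h DMSO samples, so time under 955 and time in culture cannot be told apart in this difference. MDM4 and GADD45A changed further past the threshold, and PPM1D changed by less than the fold bound. The difference was 1.29 for MDM4 (standard error 0.16, interval 0.95 to 1.63, adjusted p 3.47e-07), a 2.44-fold higher level at 6 h, and -1.64 for GADD45A (0.52, -2.72 to -0.56, adjusted p 0.00651). For PPM1D it was -0.47 (0.18, -0.84 to -0.10, adjusted p 0.0189), and with a wider standard error that ignores the shared DMSO samples its adjusted p was 0.0955. PLK3, at -0.67 (-1.36 to 0.01, adjusted p 0.063), and SESN1, at -0.39 (-0.84 to 0.06, adjusted p 0.0947), did not pass. So 2 of 5 members were past the threshold, 1 in each direction, where 62.7% of all listed genes were (27% higher and 35.6% lower), and 3 of 5 had an adjusted p below 0.05, where 84.7% of listed genes did. With the median of the listed genes set to 0, which raises the 6 h values, GADD45A was at -0.67 (adjusted p 0.264), no longer past it, and PPM1D was at 0.50 (adjusted p 0.017), higher at 6 h than at 1 h. The differences of SESN1 and PLK3 also became positive there, at 0.58 and 0.30, without passing the threshold. With the mitochondrial mRNAs set to 0, MDM4 was at -0.11 (adjusted p 0.554) and the differences of PPM1D, PLK3 and SESN1 were -1.87, -2.07 and -1.79 and past the threshold.

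The 2 compounds were given at different doses, 0.1 µM for 955 and 1 µM for SNS-032, so their values are set side by side and are not a comparison at a matched dose. In the approximate contrast of the groups as treated, 0 of 5 members were past the threshold, against 1.11% of all listed genes (0.851% higher with 955 and 0.26% lower), and 1 had an unadjusted p under 0.05. The difference of 955 minus SNS-032 was 0.11 for MDM4 (interval -0.23 to 0.46), -0.05 for PPM1D (-0.43 to 0.33), 0.30 for PLK3 (-0.41 to 1.00) and 0.33 for GADD45A (-0.81 to 1.46). Their adjusted p-values ran from 0.764 to 0.936. SESN1 had the largest of the 5 differences, 0.45 (standard error 0.22, interval 0.00057 to 0.91, p 0.0497), and an adjusted p of 0.337. The intervals are narrowest for MDM4 and PPM1D and widest for GADD45A, and a p that missed the threshold does not show that the groups had equal levels. With the mitochondrial mRNAs set to 0, the SESN1 difference was 0.73 with an adjusted p of 0.0341, still under the fold bound.

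**Figure D3:**
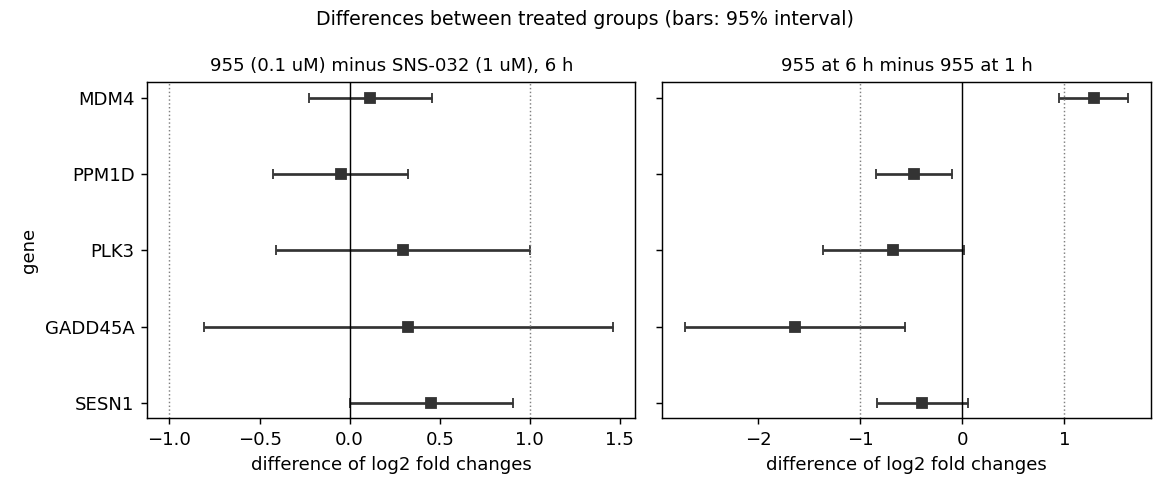
Difference of log2 fold changes (x axis) for the 5 genes (y axis), for 955 minus SNS-032 at 6 h on the left and 955 at 6 h minus 955 at 1 h on the right; squares are differences, bars 95% intervals, and dotted lines mark an absolute difference of 1. On the left all 5 squares lie between -0.05 and 0.45, and on the right MDM4 is at 1.29 and GADD45A at -1.64.

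The directions given so far rest on the authors' scaling between groups, and 2 other scalings were tried. The 13 mitochondrially encoded mRNAs, made by a separate polymerase, had median log2 fold changes of 0.67, 2.07 and 2.35 in the 3 comparisons of the authors' deposited table. Setting them to 0 moved the share of higher genes among those past the threshold from 41.3% to 3.58% for 955 at 6 h, from 41.9% to 2.72% for SNS-032 and from 8.64% to 0.898% at 1 h. Setting the median of the listed genes to 0 moved it to 74.2%, 71.7% and 17.6%. PPM1D, PLK3 and GADD45A were lower past the threshold at 6 h under all 3 scalings with both compounds. For 955 at 6 h their values ran from -4.23 to -1.14 (PPM1D), from -4.52 to -1.42 (PLK3) and from -4.90 to -1.81 (GADD45A). SESN1 ran from -2.89 to 0.20 and so changed sign (with SNS-032 it was negative under all 3 scalings, but at -0.21 with the listed-gene median at 0, adjusted p 0.419, it was no longer past the threshold), and MDM4 ran from -0.53 to 2.57. At 1 h PPM1D and PLK3 were past the threshold under all 3 scalings, with values from -2.36 to -1.64 and from -2.45 to -1.72.

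**Figure D4:**
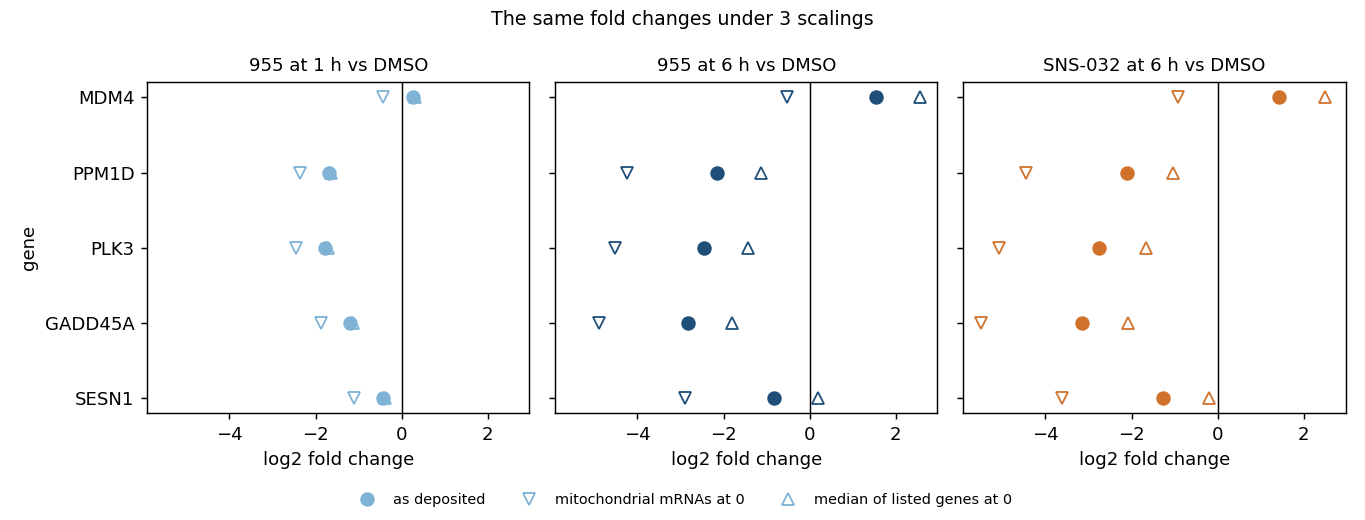
Log2 fold change (x axis) of the 5 genes (y axis) in the 3 comparisons, as deposited (filled circles), with the mitochondrial mRNAs at 0 (downward triangles) and with the median of listed genes at 0 (upward triangles). PPM1D, PLK3 and GADD45A stay left of 0 in every panel, MDM4 crosses 0 with the mitochondrial scaling, and SESN1 crosses 0 for 955 at 6 h with the median scaling.

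Upstream regulators of p53 went in both directions. Of 29 such genes 12 were listed, and with 955 at 6 h, the authors' deposited table had 8 lower, 2 higher and 2 not past the threshold, with a median of -1.42 against -1.03 for all listed genes. With SNS-032 8 were lower and 3 higher in the authors' deposited table, and at 1 h 2 were lower and 0 higher. Large falls with 955 at 6 h were those of AURKA (-3.24, FDR 7.92e-06), a mitotic kinase, KAT5 (-2.44, FDR 7.12e-10), the acetyltransferase TIP60, and CREBBP (-1.82, FDR 1.21e-10), a coactivator acetyltransferase, by the authors' deposited table. With the mitochondrial mRNAs set to 0 the split after 6 h of 955 was 10 lower and 0 higher, and with the median of listed genes set to 0 it was 3 lower and 4 higher.

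Other p53 targets went in both directions. Of 68, 28 were listed, and with 955 at 6 h, the authors' deposited table had 18 lower, 6 higher and 4 not past the threshold, with a median of -1.21 against -1.03 for all listed genes. With SNS-032 22 were lower and 6 higher in the authors' deposited table, and at 1 h 5 were lower and 0 higher. Among the 6 higher genes, none of them named here, the highest value that the authors' deposited table gives was 3.57 with 955 at 6 h and 3.39 with SNS-032. The largest falls with 955 at 6 h were those of DCP1B, a decapping cofactor, at -2.76 (FDR 2.12e-09), TRIAP1, an inhibitor of apoptosis, at -2.58 (FDR 0.000496) and the zinc finger gene ZNF561 at -2.33 (FDR 3.22e-07), all in the authors' deposited table. TRIAP1 and ZNF561 fell further with SNS-032, to -4.81 and -3.49 in the authors' deposited table, and their differences of 2.23 (standard error 0.49, adjusted p 0.029) and 1.16 (0.29, 0.0285) were past the threshold. With the mitochondrial mRNAs set to 0, 22 of the 28 were lower and 1 higher after 6 h of 955, and with the median of listed genes set to 0, 3 were lower and 6 higher.

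Of 7 p53 targets in the BCL2 and CDK-inhibitor families 2 were listed, and both were lower with 955 at 6 h in the authors' deposited table: BCL2L1, for the survival protein BCL-XL, at -1.30 (FDR 8.78e-08) and BAK1, a pore-forming death effector, at -1.10 (FDR 3.62e-06). With the median of listed genes set to 0, neither was past the threshold. Among 26 paralogues of the members 10 were listed, and with 955 at 6 h, the authors' deposited table had 8 lower, 1 higher and 1 not past the threshold. PLK1, the mitotic relative of PLK3, was at -4.02 (FDR 7.33e-15), but at -0.24 at 1 h (FDR 0.523), when PLK3 was at -1.77, in the authors' deposited table. GADD45B, the relative of GADD45A, was at -1.52 already at 1 h (FDR 0.0104) and at -1.57 after 6 h of 955 (FDR 0.000986) in the authors' deposited table. BTG1, from the family of BTG2, was at -1.44 (FDR 0.00163) and TOB1, another of that family, at -1.83 (FDR 0.000512) with 955 at 6 h in the authors' deposited table. Of the phosphatase relatives of PPM1D, PPM1G was at -1.72 (FDR 6.36e-09) and PPM1N at 2.38 (FDR 0.000578) in the authors' deposited table. PPM1N had a low average level, 0.65 log2 CPM, below that of GADD45A, and an implied standard error of 0.50 for 955 at 6 h. With the mitochondrial mRNAs set to 0 it was at 0.30. With the mitochondrial mRNAs set to 0, 9 of the 10 paralogues were lower and 0 higher after 6 h of 955, and with the median of listed genes set to 0, 1 was lower and 1 higher.

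Cell-cycle genes bound by the DREAM complex, through which p53 represses them indirectly, were mostly lower at 6 h. Of 30, 18 were listed, and with 955 at 6 h, the authors' deposited table had 16 lower, 0 higher and 2 not past the threshold, with a median of -2.06. With SNS-032 the counts in the authors' deposited table were again 16 and 0, and at 1 h 2 were lower and 0 higher, with a median of -0.18. Besides PLK1, the largest falls after 6 h of 955 were those of the mitotic cyclins CCNB1 (-3.97, FDR 3.8e-06) and CCNA2 (-3.65, FDR 1.94e-13) and of CDC20 (-3.51, FDR 5.92e-13), an activator of the anaphase-promoting complex, in the authors' deposited table. With the median of listed genes set to 0, 9 of the 18 were lower and 1 higher after 6 h of 955, and with the mitochondrial mRNAs set to 0 all 18 were lower. All counts over lists under the authors' scaling stand beside a background in which 50.1% of listed genes were lower and 35.2% higher after 6 h of 955. The rescaled counts of every list have other backgrounds. With the mitochondrial mRNAs set to 0, 3825 of the 5759 listed genes were lower and 142 higher past the threshold after 6 h of 955. With the median of listed genes set to 0, 824 were lower and 2364 higher.

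**Figure D5:**
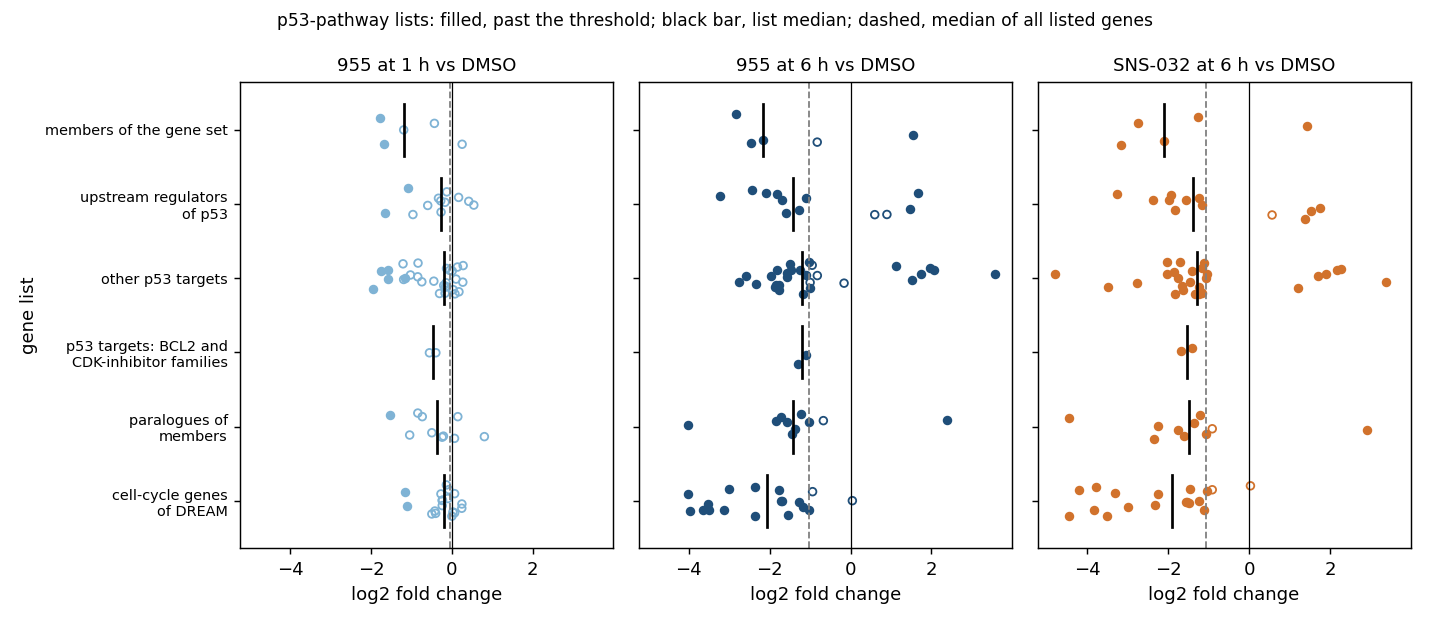
Log2 fold change against DMSO (x axis) for the listed genes of each list (y axis) in the 3 comparisons; filled points are past the threshold, open points are not, black bars are list medians and the dashed line is the median of all listed genes. At 1 h most points of every list are open, and at 6 h most are filled and below -1, with 0 of the cell-cycle genes past the threshold on the right.

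Listed genes with the most similar profile were found by Euclidean distance over the 3 log2 fold changes. The rule named MDM2 for this, so it was applied to the 5 listed members after their values were known. The nearest to MDM4 was MATCAP1 (distance 0.03), with values of 0.26, 1.53 and 1.40, and the nearest to PPM1D was TFAP2C (0.06), with -1.64, -2.19 and -2.10. PLK3 was nearest to TMEM115 (0.12), and the kinase gene PIM1 was at 0.15. GADD45A was nearest to GDF10 (0.19) and the recombinase gene RAG2 (0.23), and SESN1 to ZNF33B (0.09). A distance over 3 values is a description.

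The members had little gene structure in common. Gene span was 3.13 kb for GADD45A and 5.61 kb for PLK3, shorter than that of most listed genes (median 22.3 kb), and 41.7 kb for MDM4, 66.1 kb for PPM1D and 110.5 kb for SESN1. The genes that fell most at 6 h thus included the 2 shortest and also PPM1D, longer than 80.5% of listed genes. Exon number ranged from 4 (GADD45A) to 15 (PLK3), and the GC content of the spliced transcript from 42.4% (MDM4) to 61.2% (PLK3).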

How the data were processed

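MOLT4 RNA was sequenced in 4 groups of 3 samples, grouped by their titles. Per the labels' protocols, RNA was column-extracted and libraries made with a BGI mRNA kit. The submitters' processing notes name the build hg38 and DESeq2 without a role, and the aligner, counter, annotation and use of strand are not given in the sources used here. Per the file headers, the authors deposited for each comparison a log fold change and an average log CPM (both read as log2, since the smallest of the genes' largest absolute fold changes is 1.001), an F statistic (a score), a p-value and an FDR, and these were used as deposited. Whether replicates came from separate cultures is not stated, so p-values measure the spread between these samples.

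Implied standard errors are the absolute log2 fold change over the root of F. Degrees of freedom were solved from F and p (20.6 to 23.3 for the members). Contrasts of treated groups used the difference of 2 fold changes, the root mean square of their standard errors, a t distribution and Benjamini-Hochberg adjustment over 5759 genes. Rescaled values used the implied standard error and the same distribution and adjustment. These 5759 genes were selected for change, and the adjustment behind the deposited FDRs was another, so counts past the threshold under the 2 are not strictly alike. The contrast was tried on simulated data in which a small share of genes differed between treated groups. That setting is unlike 955 at 6 h minus 1 h, where 84.7% of listed genes had an adjusted p under 0.05. Of 5759 gene IDs 5727 matched RefSeq GRCh38.p14. Members and lists were chosen with earlier results of these data known. Other genes named were the 4 largest changes past the threshold per list after 6 h of 955, plus BTG1 and GADD45B, and the genes nearest to members; a few genes the rule named are not reported here. Python 3.11.15, NumPy 2.4.6, pandas 2.3.3, SciPy 1.17.1 and Matplotlib 3.10.9 were used.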

Additional observations from a re-analysis of the deposited data

Results flagged for a closer look

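The level with 955 differed between 1 h and 6 h for 3 of the 5 genes. The test was of the difference itself, adjusted over all listed genes. Vehicle cells were harvested at 6 h alone, so time under 955 and time in culture cannot be told apart here. MDM4 was 1.29 higher at 6 h on the log2 scale (adjusted p 3.47e-07), PPM1D was at -0.47 (adjusted p 0.0189) and GADD45A at -1.64 (adjusted p 0.00651). Under the same adjustment 84.7% of listed genes had an adjusted p under 0.05 in this contrast.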

How the results depend on the processing

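No paired analysis was possible because the values are the authors' comparisons and carry no replicate numbers, and for the same reason leaving out each replicate was not run. The number of members past the threshold at 1 h was 2, and became 0 with the fold bound raised to 2 and 4 with mitochondrial scaling. For SNS-032 it was 5, and 3 with the fold bound raised to 2. For 955 at 6 h minus 1 h it was 2, 4 with mitochondrial scaling and 1 with the median of listed genes set to 0. For 955 at 6 h and for 955 minus SNS-032 the counts, 4 and 0, stayed within 1.5 times under every alternative run. The members behind the 4 changed with mitochondrial scaling, from 1 higher and 3 lower to 0 higher and 4 lower. There MDM4 no longer passed and SESN1 newly passed, at -2.89 (adjusted p 6.22e-12 by the test on implied standard errors). With mitochondrial scaling MDM4 changed sign, to -0.42 with 955 at 1 h, -0.53 with 955 at 6 h, -0.92 with SNS-032 and -0.11 for 6 h minus 1 h, as did PPM1D for 955 minus SNS-032, to 0.22. With the median of listed genes set to 0, SESN1 changed sign with 955 at 6 h, to 0.20, and for 6 h minus 1 h so did SESN1, PPM1D and PLK3, to 0.58, 0.50 and 0.30. Of 125 values of single members under alternatives, 101 kept direction and side of the threshold. With direction kept, 7 no longer passed and 8 newly passed, and 9 changed sign. The sign changes all came with rescaling, 5 with the mitochondrial mRNAs and 4 with the median of listed genes set to 0. Under these scalings 14 and 19 values kept direction and side. The other settings change only a cutoff or a standard error, so they could not change a sign. Where MDM4 changed sign with 955 at 6 h, with SNS-032 and for 6 h minus 1 h, it also no longer passed. Depth is unknown, and the low average level of GADD45A goes with the widest intervals.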
